A study of Mus musculus with 4 samples.

Results

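The genes whose products break down amyloid β (Aβ), or take up or sort it or its precursor, were examined in the cortex of APPswe/PS1ΔE9 mice. The set holds 5 enzymes (Mme, Ide, Ece1, Ece2 and Ace) and 4 receptors (Lrp1, Vldlr, Sorl1 and Lrp8). The 9 genes were listed by what their products do, not by a cut-off on any measured value. Earlier results of these data were known when they were listed. All 9 were found among the 18386 features of the table, where they own 26 of its 37539 transcripts. Whole transcriptome sequencing covered 2 APPswe/PS1ΔE9 mice (APP) and 2 WT mice, all male, 12 months old, kept in SPF housing and on a C57BL/6 background. The APP mice descend from the 85Dbo line, in which prion protein promoters drive a chimeric APP with the Swedish mutation and a human presenilin 1 without exon 9. The WT controls were C57BL/6J mice and carry neither transgene. Libraries are called here by their column headers, APP-3 and APP-4 against WT-1 and WT-2, and held between 28525117 and 43881196 counts.

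Aβ is released from its precursor by successive cuts and is removed from the brain along several routes. Zinc metallopeptidases of the neprilysin and insulin-degrading enzyme families cut the peptide into short fragments, in the extracellular space or inside vesicles. Lipoprotein receptors take up Aβ together with carrier proteins such as apolipoprotein E, and the VPS10 receptor encoded by Sorl1 steers the precursor away from the compartments where it is cut.

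The libraries differ in ways that bear on what follows. The labels number the WT mice but not APP-3 and APP-4, so the APP columns were matched to their group and not to a mouse. The samples are separate in the labels, and the p-values measure the spread between them. With 2 libraries a group an exact permutation test cannot give a two-sided p below 0.333, so every p below rests on the spread that edgeR shares across features. Replicates lay further apart in APP, with a chi-square per degree of freedom over transcripts of 15.3, than in WT, where it was 3.47. The genotype labels were checked with App, which was 2.88-fold higher in APP with non-overlapping groups, and reads of the transgene can count toward it. The 12 listed markers of cortical neurons were all counted in every library and summed to between 3807 and 4693 CPM (counts scaled to a common library size with TMM factors). Where 2 values are given for a group, APP-3 comes before APP-4 and WT-1 before WT-2.

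Alternative exons distinguish the proteins made from Lrp8 and Vldlr, and both exons keep the reading frame. They are shown because the deposited table counts their transcripts separately, which allows the share of reads on each form to be given further on. In Lrp8 (apolipoprotein E receptor 2, a receptor for reelin and apolipoprotein E), exon 18 of the 19 exons of transcript Lrp8-201 encodes an insert of the cytoplasmic tail. It spans chr4:107870012-107870188 on the + strand of GRCm38, is 177 bases or 59 codons long, and is given in capitals with 15 bases of the neighbouring exons in lower case.

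Lrp8 exon 18: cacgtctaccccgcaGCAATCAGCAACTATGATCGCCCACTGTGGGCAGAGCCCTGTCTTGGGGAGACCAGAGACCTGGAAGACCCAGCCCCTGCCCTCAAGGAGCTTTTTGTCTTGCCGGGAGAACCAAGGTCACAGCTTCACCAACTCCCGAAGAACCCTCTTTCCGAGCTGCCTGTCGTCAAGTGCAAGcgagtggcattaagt

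In Vldlr (the very low density lipoprotein receptor, the other reelin receptor), exon 16 of the 19 exons of Vldlr-207 encodes the serine- and threonine-rich stretch next to the membrane that carries O-linked sugars. It spans chr19:27246593-27246676 on the + strand, is 84 bases or 28 codons long, and is shown in the same way.

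Vldlr exon 16: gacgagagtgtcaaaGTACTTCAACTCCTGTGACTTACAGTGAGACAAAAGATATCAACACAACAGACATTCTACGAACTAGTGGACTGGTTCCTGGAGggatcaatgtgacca

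The receptor genes stood above the enzyme genes in level once reads were divided by transcript length. Sorl1 had the highest mean over the 4 libraries, 44.8 CPM per kb of transcript, followed by Lrp1 with 30.02, Vldlr with 19.8 and Lrp8 with 12.7 CPM per kb. Among the enzymes Ide came first with 11.5 CPM per kb, and then Ece1 with 9.36, Ece2 with 4.76, Mme with 3.01 and Ace with 1.97. The Ece1 value includes the short transcript Ece1-203, of 172 bases and with 1.12% of Ece1 reads. Division by its own length gives this transcript more weight than that share. Sorl1 lay at percentile 92.9 of all features on this scale and Ace at percentile 34.7. The ranges over the 4 libraries of neighbours in this order did not overlap, except between Ece2 and Mme and between Mme and Ace. Lrp8 and Ide were nearly level, since the lowest Lrp8 value, 12.2 CPM per kb, was just above the highest Ide value of 12.0.

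None of the 9 genes passed both cut-offs between APP and WT, which were a fold change of at least 1.5 and an FDR under 0.05 (edgeR's quasi-likelihood test, Benjamini-Hochberg adjustment over all 18386 features). Over all features 0.881% passed, 0.843% with the higher level in APP and 0.0381% with the lower one. At an unadjusted p under 0.05 there was 1 of the 9 genes, Ece2, against 12.1% of all features. DESeq2, edgeR's exact test and edgeR's likelihood ratio test each called 1 of the 9, again Ece2. In that order these tests called 202, 354 and 391 of the 18386 features, against 162 in the quasi-likelihood test. Groups did not overlap for 6 of the 9 genes, where 42.7% of all features had groups apart. In 3 of them APP was higher (21.3% of all features) and in 3 it was lower (21.4%). The median log2 fold change (APP over WT throughout) of the 9 genes was -0.04, and that of all features was -0.00.

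**Figure D1:**
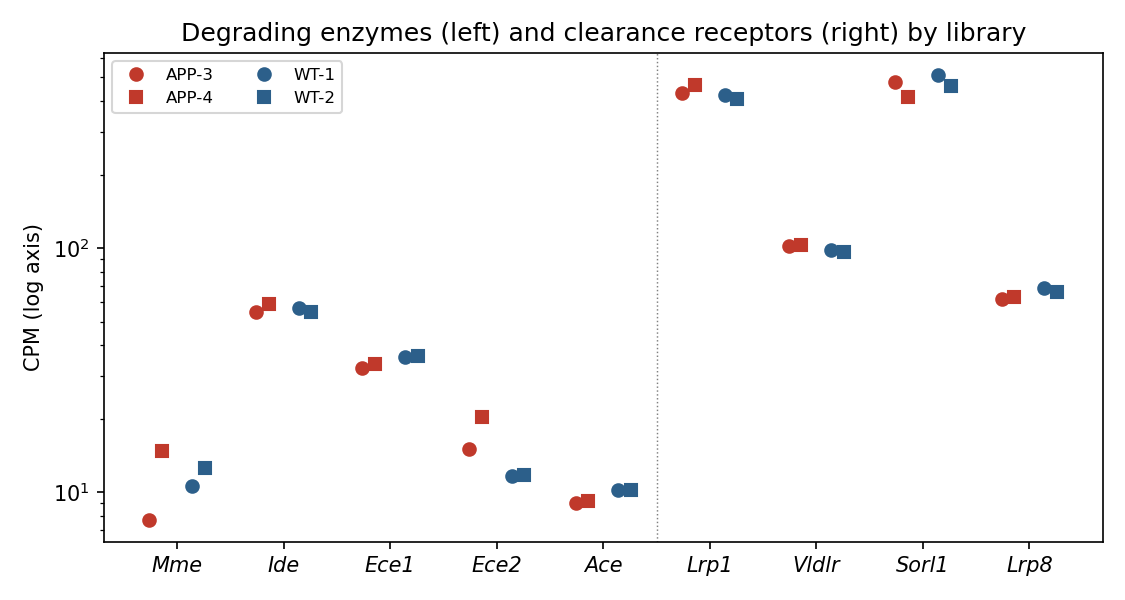
CPM (TMM-scaled, log axis) of the 9 genes in each library, with 1 point a library, APP in red and WT in blue, enzymes left and receptors right of the dotted line. Red and blue points lie close together for most genes, Ece2 is higher in both APP libraries, at 14.99 and 20.3 CPM against 11.6 and 11.7, and Mme has its lowest and its highest value in APP.

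Mme encodes neprilysin, the membrane-bound peptidase regarded as a main Aβ-degrading enzyme of the brain. It had 7.72 and 14.7 CPM in the APP libraries and 10.6 and 12.6 in the WT libraries. The APP libraries thus held both the lowest and the highest value and enclosed the WT libraries. The log2 fold change was -0.04 (SE 0.25, FDR 0.974), and the 95% interval of the ratio of APP to WT ran from 0.655 to 1.44, so a fall of 1.5-fold lay inside it. The APP libraries differed 1.90-fold in Mme and the WT libraries 1.18-fold. Of 14661 features compared in this way, 1.47% differed at least as much between the APP libraries, and the median ratio was 1.10.

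Which APP library was used decided the direction for Mme. Without APP-4 its log2 fold change was -0.58, a fall that did not reach 1.5-fold, and without APP-3 it was 0.35. In each of these fits an APP library stood alone in its group, so no spread between APP mice entered. Leaving out WT-2 also turned the sign, to 0.09. With all 4 libraries its FDR was lowest, at 0.973, in the quasi-likelihood test on features with at least 10 counts in every library.

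Neprilysin is known to be abundant in the striatum, which lies beneath the cortex. The summed level of 12 listed striatal markers was 416 and 837 CPM in the APP libraries and 565 and 623 in the WT libraries, so that the 4 libraries had the same order as for Mme. All 12 markers were higher in APP-4 than in APP-3, by ratios from 1.64 to 7.27, and none was at 0 in any library. The summed ratio of 2.01 between the APP libraries was close to the 1.90 of Mme. In WT-2 the sum was 1.10 times that in WT-1. The part of the striatal markers in the Mme values was not tested. In tissue of mixed cells, fewer cells of a type and less RNA per cell cannot be told apart, here and for every gene below.

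**Figure D2:**
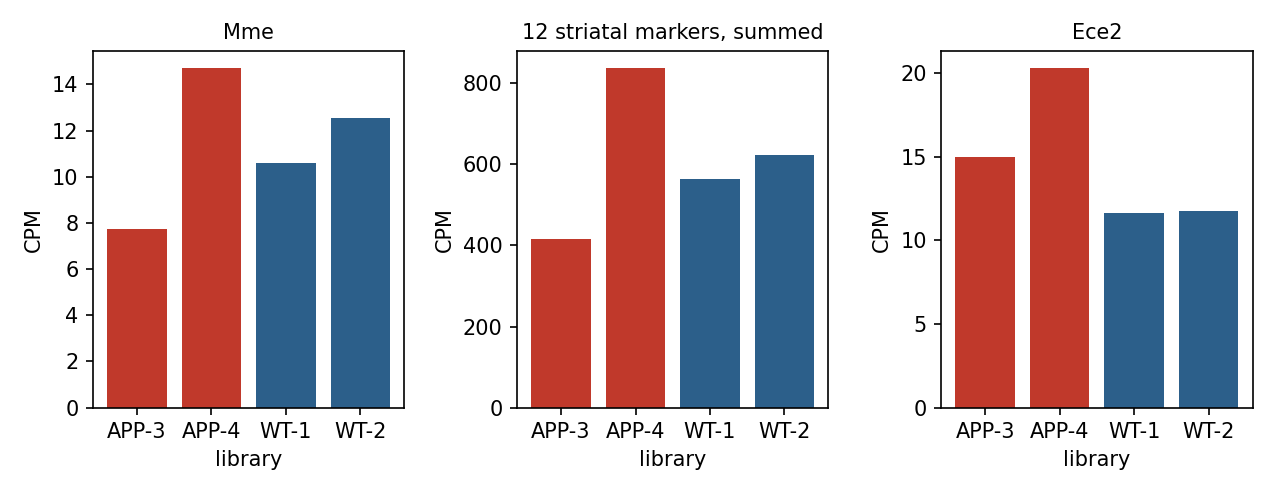
CPM of Mme (left), the sum of 12 striatal markers (middle) and Ece2 (right) in each library, APP in red and WT in blue, on axes that start at 0. Mme and the striatal sum rise in the same order from APP-3 over WT-1 and WT-2 to APP-4, whereas Ece2 is higher in both APP libraries than in both WT libraries.

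Ide encodes insulin-degrading enzyme, a cytosolic and secreted metallopeptidase that cuts insulin and Aβ. Its level was 54.6 and 58.8 CPM in APP against 57.0 and 54.7 in WT, and the groups overlapped. The log2 fold change of 0.02 (SE 0.07, FDR 0.948) had a 95% interval from 0.907 to 1.14 as a ratio. Its sign changed without APP-4 or without WT-2, where it was -0.03 and -0.00.

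Endothelin-converting enzymes also cut Aβ, Ece1 in endosomes and at the cell surface and Ece2 in acidic vesicles. Ece1 had 32.2 and 33.7 CPM in APP compared with 35.8 and 36.0 in WT. Both APP values were below both WT values, by a log2 fold change of -0.12 (SE 0.07, FDR 0.558) that did not pass the test.

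Ece2 had the largest difference of the 9 genes. It was at 14.99 and 20.3 CPM in APP, from 435 and 628 reads, against 11.6 and 11.7 CPM in WT, from 511 and 416 reads. Both APP libraries were above both WT libraries, and the spread between the APP libraries, 1.35-fold, was far wider than the 1.01-fold between the WT libraries. The fold change was 1.51 with a 95% interval from 1.21 to 1.89, a log2 value of 0.60 (SE 0.14). The unadjusted p was 0.00263 and the FDR 0.113 in the quasi-likelihood test, so Ece2 was past the fold cut-off and not past the FDR cut-off. The same counts gave an FDR of 0.0347 with DESeq2, 0.0125 with edgeR's exact test and 0.0113 with its likelihood ratio test. Library APP-4 held the larger part of the difference. Without APP-4 the log2 fold change was 0.36, and without APP-3 it was 0.80. With all 4 libraries the FDR ranged from 0.0113 (likelihood ratio test) to 0.115 (quasi-likelihood test, at least 10 counts in every library).

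The reads of Ece2 fell on 3 transcripts, and all 3 had both APP libraries above both WT libraries. Transcript Ece2-201 took 86.2% of them and had 13.0 and 17.4 CPM in APP against 10.1 and 9.995 in WT, with a log2 fold change of 0.60 and an FDR of 0.0511 over 37539 transcripts (quasi-likelihood test). Ece2-203 had a log2 fold change of 0.50 and the retained-intron transcript Ece2-206 of 0.82, with FDRs of 0.634 and 0.504. The gene overlaps Eef1akmt4, a methyltransferase gene, and Gm49333, a readthrough of the pair, which the deposited table also files under the symbol ECE2. Gm49333-201 held 3 and 1 reads in APP and 9 and 10 in WT, and Eef1akmt4-201 held 12 and 12 against 19 and 15. How the aligner divided reads from shared exons among these transcripts is not known, so the split is uncertain. With both neighbours added, as under the deposited symbol, the log2 fold change of Ece2 was 0.56 and its FDR 0.0995.

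Other tissue markers also moved between the groups or the APP libraries that set Ece2 apart. The 14 listed microglia markers summed to 308 and 374 CPM in APP and 169 and 171 in WT, all 14 were higher in APP, 10 passed both cut-offs, and Cst7 was at 0 in WT-2. The 9 astrocyte markers summed to 4321 and 4684 against 3853 and 3499 CPM, with 8 higher and 3 past both cut-offs, and the 9 oligodendrocyte markers to 1949 and 1701 against 1267 and 1405 CPM, with 9 higher and 1 past both. Neither list had a marker at 0. Of 10 hypothalamic markers 6 were counted, at 6.03 and 9.30 CPM in sum in APP and 1.46 and 0.99 in WT. All 6 were higher in APP, and 2, Avp and Sim1, passed both cut-offs. Avp and Sim1 were at 0 in WT-2 and Oxt at 0 in WT-1. The part of any of these in the members' values was not tested.

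Ace encodes angiotensin-converting enzyme, a peptidase of blood vessels, choroid plexus and striatal neurons that can also cut Aβ. Its APP libraries had 9.03 and 9.20 CPM and its WT libraries 10.2 each. Both APP libraries were lower, with a log2 fold change of -0.16 (SE 0.12, FDR 0.640) and a 95% interval of the ratio from 0.743 to 1.07. Ace was the least expressed of the 9 genes per kb, with 262 to 448 reads a library. The 12 endothelial markers summed to 119 and 114 CPM in APP and 127 and 116 in WT, and the 10 mural cell markers to 122 and 127 against 123 and 114. Choroid plexus was represented by 6 of 8 markers at 5.94 to 8.33 CPM in sum. None of these 3 lists had a marker past the cut-offs or a counted marker at 0. The APP libraries, which differed 2.01-fold in the striatal sum, lay within 1.02-fold of each other in Ace. The part of any of these markers in the Ace values was not tested.

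**Figure D3:**
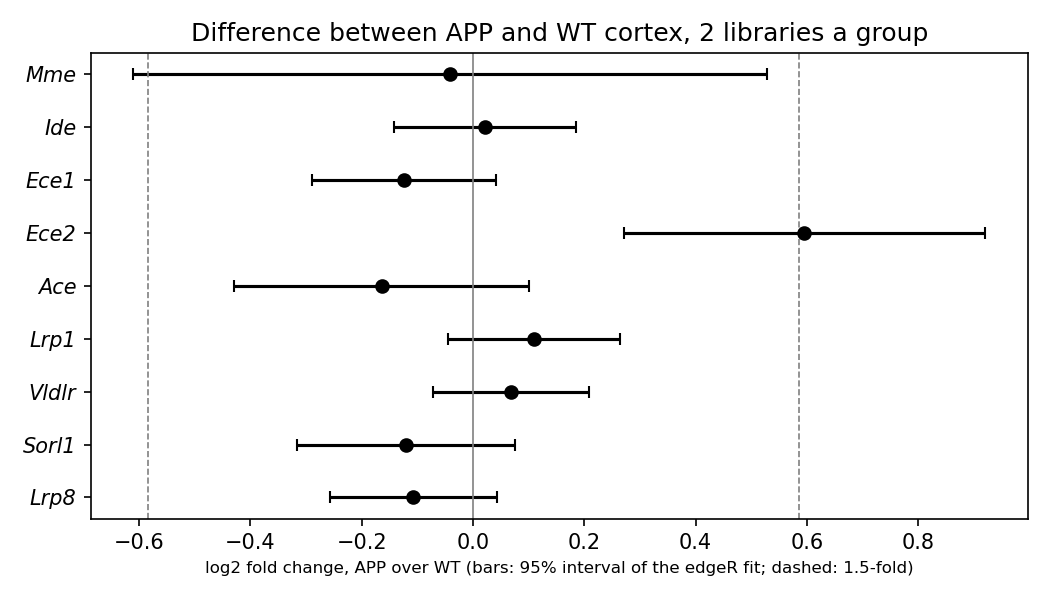
Log2 fold change of APP over WT for the 9 genes, with bars for the 95% interval of the edgeR fit on 2 libraries a group, a solid line at no change and dashed lines at a 1.5-fold change either way. The intervals of 7 genes lie between the dashed lines, that of Mme crosses the lower one and that of Ece2 the upper one, and the Ece2 interval alone excludes no change.

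The 4 receptors had log2 fold changes between -0.12 and 0.11, and none passed the test. Lrp1 encodes a large endocytic receptor that clears apolipoprotein E, α2-macroglobulin and Aβ at the blood vessel wall and in neurons and glia. It had 432 and 465 CPM in APP compared with 425 and 407 in WT. The APP libraries were both higher, but APP-3 exceeded WT-1 by little, and the log2 fold change of 0.11 (SE 0.07, FDR 0.582) did not pass the test. Its 95% interval ran from 0.969 to 1.20 as a ratio. Without APP-3 the log2 fold change was 0.16, which is under the fold cut-off. With all 4 libraries the FDR ranged from 0.556 (quasi-likelihood test, at least 10 counts in every library) to 0.945 (DESeq2).

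Sorl1 encodes the sorting receptor SORLA, a risk gene of Alzheimer's disease. It had 478 and 415 CPM in APP compared with 511 and 461 in WT, so the groups overlapped. The log2 fold change was -0.12 (SE 0.09, FDR 0.641), with a 95% interval of the ratio from 0.803 to 1.05. The log2 fold change ranged from -0.23 without APP-3 to -0.02 without APP-4. With all 4 libraries the FDR ranged from 0.617 (quasi-likelihood test, at least 10 counts in every library) to 0.997 (DESeq2). The order of the libraries was close to that of the 12 cortical neuron markers in so far as APP-4 was lowest in both, and the marker sums were 4693 and 3807 CPM in APP compared with 4381 and 4320 in WT. Syt1 alone put the sum of APP-3 above the WT libraries, since the other 11 markers summed to 3389 and 3145 CPM in APP and 3616 and 3577 in WT. Of those 12 markers 10 were lower in APP and none passed the cut-offs, and their part in the Sorl1 values was not tested.

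Vldlr and Lrp8 bind reelin, the signal that guides neuronal layering and later modulates synapses, and also take up apolipoprotein E. Vldlr had 102 and 103 CPM in APP compared with 98.4 and 96.8 in WT. The log2 fold change was 0.07 (SE 0.06, FDR 0.740), with a 95% interval of the ratio from 0.951 to 1.16. Lrp8 went the other way, with 62.0 and 63.0 CPM in APP against 68.7 and 65.9 in WT. Its log2 fold change was -0.11 (SE 0.07, FDR 0.578), and its 95% interval ran from 0.837 to 1.03. In both genes the groups were apart and the replicates close, within 1.04-fold, yet neither difference passed the test.

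None of the 26 transcripts passed both cut-offs in the quasi-likelihood test, against 0.807% of all 37539 transcripts, and none passed the FDR cut-off alone, against 1.06%. There were 3 with an unadjusted p under 0.05, Ece2-201, Ece2-206 and Lrp8-202, where 9.18% of all transcripts had one. DESeq2 called 0 of the 26, and edgeR's exact and likelihood ratio tests called 1 each. The share of all transcripts called by those tests is not given here, so their counts cannot be set beside it. Groups were apart for 10 of the 26, where 38.5% of all transcripts had groups apart. A single transcript took at least 98.9% of the reads of Mme, Ide, Ece1, Ace, Lrp1 and Sorl1, among them Lrp1-201 with 99.6% and Sorl1-201 with 99.8%.

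Lrp8 had 2 main transcripts. Lrp8-201, which holds the exon printed above, had 34.9 and 35.2 CPM in APP and 36.5 and 34.2 in WT, with a log2 fold change of -0.01 and overlapping groups. Lrp8-202, which lacks that exon and ends in a last exon of 4568 bases, had 25.7 and 25.8 CPM in APP against 30.01 and 29.5 in WT. Its log2 fold change of -0.21 had an unadjusted p of 0.0299 and an FDR of 0.456. Transcripts with the insert exon took 57.0% and 56.9% of Lrp8 reads in APP and 54.7% and 52.9% in WT. These shares were higher in both APP libraries, and no test was made of the share itself. Because the transcripts differ in other exons too, the share is not a measure of the exon alone.

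Vldlr reads fell mainly on Vldlr-207, which holds the printed exon, with 58.6% of them, and on Vldlr-201, annotated as a target of nonsense-mediated decay, with 36.6%. The share of Vldlr-207 was 59.6% and 58.5% in APP and 58.0% and 58.4% in WT. Its log2 fold change was 0.09 (FDR 0.809) and that of Vldlr-201 was 0.01 (FDR 0.988).

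**Figure D4:**
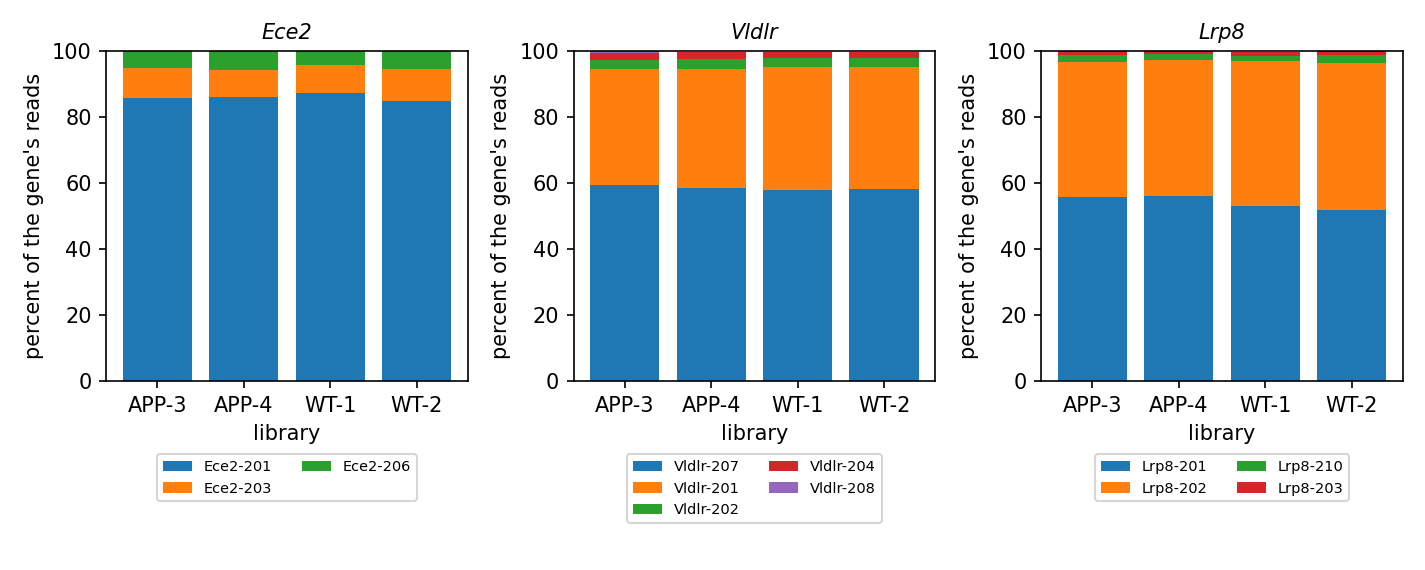
Percent of the reads of Ece2 (left), Vldlr (middle) and Lrp8 (right) on each of their counted transcripts, 1 bar a library. Ece2-201 stands at 86.2% of all Ece2 reads and Vldlr-207 at 58.6% of Vldlr reads, and Lrp8 transcripts with the insert exon took 57.0% and 56.9% in APP and 54.7% and 52.9% in WT.

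The study's network of predicted microRNA targets lists Vldlr under miR-330-5p and Lrp1 under miR-484. The mature sequences, from RefSeq on GRCm38.p6, are given with the seed (bases 2 to 8) in capitals because the search below used its complement.

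mmu-miR-330-5p: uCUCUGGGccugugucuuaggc

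mmu-miR-484: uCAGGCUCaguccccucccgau

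The complement of the first seed, CCCAGAG, occurred 1 time in Vldlr-207 on the transcript strand, after the coding sequence, at bases 3239 to 3245 of the transcript or chr19:27249499-27249505. It is in capitals in cctgtacatatCCCAGAGaacaatcacta. The same letters are in 17.4% of 14535 sequences after the coding sequence, which are those of at least 30 bases from the leading protein-coding transcript of each gene. These differ in length, and that of Vldlr-207 has 5091 bases. The complement of the second seed, GAGCCTG, was found 0 times in the 789 bases after the coding sequence of Lrp1-201 and 4 times elsewhere in the transcript, and it is in 15.1% of the searched sequences. Vldlr and Lrp1 differed from WT by log2 fold changes of 0.07 and 0.11, as given above. A match is a description of letters and no evidence of a site.

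Other genes of amyloid clearance were grouped into 7 lists, and 3 of their genes passed both cut-offs, all higher in APP. Over all features 0.843% passed in that direction. The lists were chosen with earlier results of these data known. Setting their calls beside that share is therefore no test of enrichment.

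Among 12 other Aβ-degrading proteases 1 passed. Ctsd, the lysosomal aspartyl protease cathepsin D, had 378 and 415 CPM in APP against 161 and 158.5 in WT, with a log2 fold change of 1.31 (SE 0.07, FDR 5.49e-05). Ctsb, the cysteine protease cathepsin B, had 288 and 303 against 237 and 244.5 CPM, with a log2 fold change of 0.30 and an FDR of 0.0807. The list had 6 genes higher and 6 lower in APP and a median log2 fold change of -0.00. Among 8 of 10 counted peptidases of the members' own families none passed, and the most abundant, Lnpep and Npepps, had log2 fold changes of 0.01 and -0.03.

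Among 14 of 15 counted receptors of the lipoprotein and VPS10 families and their chaperones none passed in edgeR's quasi-likelihood test or in any other test, and 4 were higher and 10 lower in APP. At an unadjusted p under 0.05, which 12.1% of all features had, there were 4, Lrp5 (log2 fold change 0.40), Lrp11 (-0.19), Sort1 and Sorcs1 (-0.16). The most abundant, Sort1 and Lrp1b, had log2 fold changes of -0.20 (FDR 0.307) and -0.03 (FDR 0.910), and the median of the list was -0.06. Sort1, the VPS10 receptor sortilin, had 424.5 and 381 CPM in APP against 452 and 474 in WT, with groups apart.

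Among 12 ligands and regulators of the receptors 1 passed both cut-offs, A2m. The list had 9 genes higher and 3 lower in APP, where 49.7% of all features were higher, and a median log2 fold change of 0.21 where that of all features was -0.00. A2m, which encodes α2-macroglobulin, a protease inhibitor carried by Lrp1, had 3.86 and 3.74 CPM in APP and 0.660 and 1.04 in WT, with a log2 fold change of 2.17 (SE 0.26, FDR 0.00729). Clu, the Aβ-binding chaperone clusterin, had 328 and 344 against 255.5 and 249 CPM and passed the FDR cut-off only, with a log2 fold change of 0.41 (FDR 0.0236). Apoe, the main lipid carrier of the brain, was at 649.5 and 750.2 against 542 and 547 CPM, a log2 fold change of 0.36 with an FDR of 0.0789. Serpini1, the inhibitor neuroserpin, was second in level after Apoe and had a log2 fold change of -0.33 (FDR 0.207). The microglia and astrocyte sums given beside Ece2 were also higher in both APP libraries, and their part in these genes was not tested.

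The retromer and the sorting partners of Sorl1 had none of 12 genes past the cut-offs and a median log2 fold change of 0.01. Vps35, the core subunit of the retromer, had 210.2 and 192 CPM in APP against 194 and 208 in WT, and Hspa12a, a chaperone that binds SORLA, had 179.6 and 169.6 against 192 and 194 CPM, with log2 fold changes of 0.00 and -0.15. Of 7 counted genes of transport at the blood-brain barrier none passed, and Abca1, the lipid exporter that loads apolipoprotein E, had the highest log2 fold change, 0.55 with an FDR of 0.0733. Picalm, a clathrin assembly protein, had 0.13 (FDR 0.501).

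The peptides that give Ace and the Ece enzymes their names were covered by 8 of 10 counted genes of the angiotensin and endothelin systems, of which 1 passed. Ednrb, the endothelin receptor B of astrocytes and vessels, had 47.9 and 59.4 CPM in APP and 36.0 and 34.98 in WT, with a log2 fold change of 0.60 (SE 0.10, FDR 0.0335). It was lost without APP-4 or without WT-2. Atp6ap2, the prorenin receptor and the most abundant of the list, had a log2 fold change of -0.02 (FDR 0.963).

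**Figure D5:**
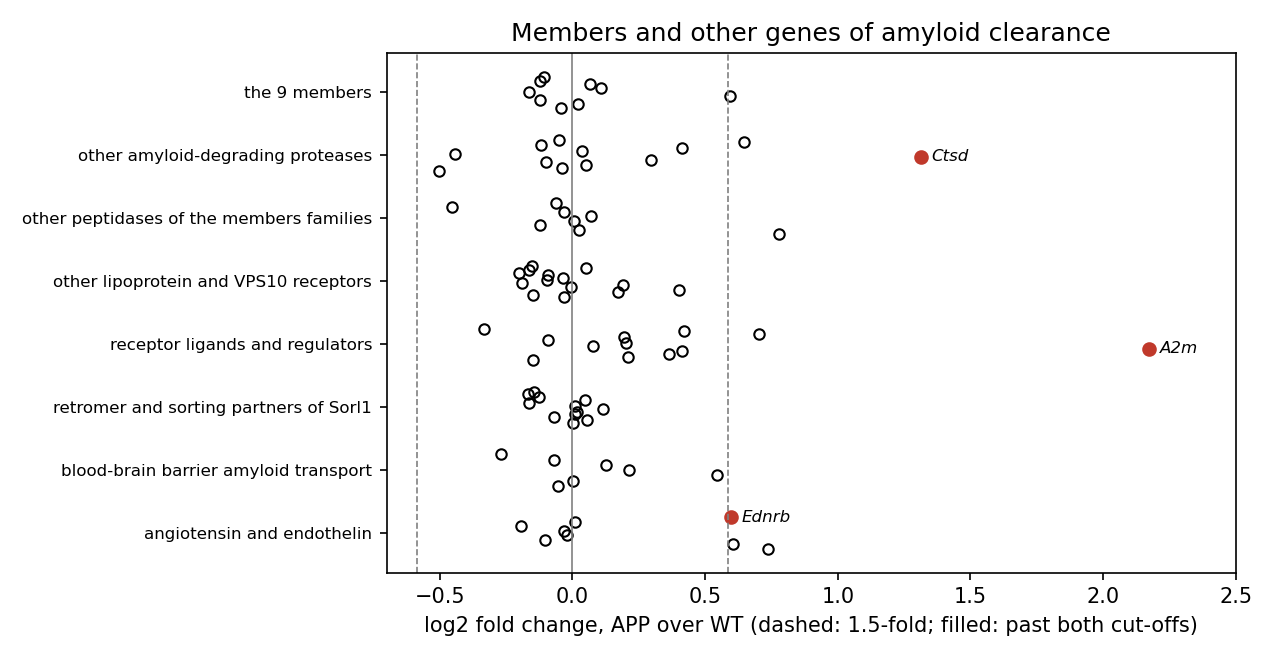
Log2 fold change of APP over WT for the 9 genes and for each counted gene of the 7 lists, 1 circle a gene, filled where the gene passed both cut-offs, with dashed lines at a 1.5-fold change. The filled circles are Ctsd, A2m and Ednrb, and 8 of the 9 genes in the top row lie within 0.2 of no change on the log2 axis, Ece2 lying apart at 0.60.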

How the data were processed

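The authors made strand-specific libraries from ribosome-depleted cortical RNA, removed read pairs matching ribosomal RNA, used FANSe2 for alignment to Ensembl mouse RNAs and deposited read counts per transcript. The submitters' processing notes name CASAVA 1.8, edgeR and a human genome build, whereas the identifiers are mouse Ensembl transcripts. The Ensembl release is not given in the sources used here. The authors' log2 CPM in 4 further columns, 1 a library, and the columns of their own comparison (fold change, mean level, p-value and FDR) were not used.

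Counts were to be summed by deposited gene symbol, but 0 of the 9 members are spelled exactly, Sorl1 carries another symbol and transcripts with 60.7% of Vldlr reads carry none. They were therefore summed by gene identifier in GENCODE M21 (GRCm38), which matched 98.2% of transcripts, and symbol sums became an alternative, added after the data had been seen. The members and lists were chosen with earlier results of these data known, and a listed gene is not reported here. Every feature had at least 10 counts over the libraries. Groups were compared with edgeR 4.0.16 (quasi-likelihood test, TMM, common dispersion 0.00778) in R 4.3.3. Intervals and SEs come from that fit. The code was also run on simulated counts with the same spread in both groups, unlike these libraries, and no result rests on that run. Level per length is CPM per kb of each counted transcript, summed over the gene. DESeq2 1.42.0, the likelihood ratio and exact tests of edgeR, scaling by library totals, other count filters, no minimum fold change and leaving out each library were alternatives. Named genes are the members, App, and of each list those with an FDR under 0.05 and the 2 of highest CPM, with Lrp5, Lrp11, Sorcs1, Ecel1, Plau and Serpine2 added after their values were seen, and of each member the leading transcript, with other transcripts also added after their values were seen. Reads carry no molecular identifiers. Motifs were searched on the transcript strand only, since the targets are RNAs. Figures were drawn with matplotlib 3.10.9.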

Additional observations from a re-analysis of the deposited data

How the results depend on the processing

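The count of members past the cut-offs was 0, and was 1 with DESeq2, edgeR's exact test, its likelihood ratio test and without APP-3, each time Ece2, whose log2 fold change there was 0.596, 0.595, 0.595 and 0.796. With one library left out the count of members lay between 0 and 1, and that of their transcripts also between 0 and 1. The count of transcripts was 1 with the exact and the likelihood ratio tests and 0 with the other tools. The share of all transcripts called is given for the quasi-likelihood test only. Leaving out one library moved the log2 fold change of Mme between -0.578 and 0.348, of Ide between -0.0316 and 0.0746, of Ece2 between 0.363 and 0.796, of Sorl1 between -0.227 and -0.0202, of Lrp1 between 0.0589 and 0.161, of Ece1 between -0.154 and -0.0914, of Ace between -0.175 and -0.151, of Lrp8 between -0.133 and -0.0769 and of Vldlr between 0.0601 and 0.0794. The sign turned for Mme without APP-3 (0.348) and without WT-2 (0.086), and for Ide without APP-4 (-0.0316) and without WT-2 (-0.00445), and the other 7 members kept theirs under all alternatives. Genes of the 7 lists past the cut-offs numbered 3, and between 2 and 7 with one library left out, 7 without APP-3, 2 without APP-4 and 2 without WT-2, Ctsd and A2m being called in each. Symbol sums called Ctsd, A2m and Ednrb as well. A library left alone in its group was taken to vary like the other group. The counts of calls from such fits therefore take in no spread within that group. No scaling moved the median of all features by 0.1 or more on the log2 scale. Over all features the calls numbered 162, between 135 and 602 with one library left out, 354 with the exact and 391 with the likelihood ratio test. No paired analysis was possible because the numbers of the APP columns are not in the labels. At 7.72 to 20.3 CPM, Mme, Ece2 and Ace rest on 224 to 628 reads a library, fewer than the other members.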

Other observations

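Among the listed genes of amyloid clearance, 4 that did not pass both cut-offs with all libraries passed them without APP-3, that is on APP-4 alone against WT. Ecel1, a neuronal relative of the endothelin-converting enzymes, had 2.72 and 5.33 CPM in APP against 2.39 and 2.31 in WT (log2 fold change 0.78, FDR 0.320 with all libraries, edgeR's quasi-likelihood test). Plau, the plasminogen activator urokinase, had 4.27 and 5.17 CPM against 2.73 and 3.33 (log2 fold change 0.65, FDR 0.193). Serpine2, a protease inhibitor taken up by Lrp1, had 85.3 and 115.6 CPM against 74.98 and 75.1 (log2 fold change 0.42, FDR 0.193). Abca1 had 85.6 and 112.4 CPM against 69.7 and 65.96 (log2 fold change 0.55, FDR 0.0733). They are named for that pass, so their higher value in APP-4 is part of how they were chosen. No spread between APP mice entered that pass, and over all features too that fit called more than the fit with all libraries.

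Markers of interneurons and of the thalamus were listed as well. The 9 interneuron markers summed to 584 and 675 CPM in APP and 696 and 666 in WT, 2 of them higher in APP and none past the cut-offs. The 8 thalamic markers summed to 294 and 266 CPM in APP and 276 and 266 in WT, 6 of them higher in APP and 1, Calb2, past the cut-offs. No marker of either list was at 0, and their part in the values of the 9 genes was not tested.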
